A study of Bos taurus with 6 samples.

Results

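The sequence beside 316 differentially methylated regions of cattle blood DNA was described, up to 2000 bp before the start and after the end of each region. The authors' deposited table lists 334 such regions, and the 316 on autosomes were used, while the 18 on the X chromosome were left out. A flank held every covered CpG cytosine within that distance that lay inside no listed region, in 3 bins by distance from the nearer edge: a near bin of 1 to 100 bp, a middle bin beyond 100 and up to 500 bp, and a far bin beyond 500 and up to 2000 bp. In all, 29386 flank cytosines were covered in 1 or more libraries, beside 4144 inside the regions and 4539378 on the autosomes. A flank value was measured for both groups in 1 or more bins for 313 regions and in all 3 bins for 182. In the remaining 3, at an unnamed gene model (ENSBTAG00000045856), at FMN1, which encodes the actin-nucleating protein formin, and at a locus on chromosome 20 with no listed gene, no bin was measured in both groups.

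In mammals, methyl groups sit mainly on cytosines followed by guanine, and neighbouring CpGs on a DNA molecule often share their state. CpG islands, which are dense in these sites and often mark promoters, are mostly unmethylated, whereas scattered CpGs elsewhere are mostly methylated. The zones around an island, called shores and shelves, lie between these states. Whether a difference between animals stops at the border of a called region or runs on into its surroundings depends on this layout and on where the border was set.

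Blood DNA came from 6 adult male cattle, with 1 library per animal, and methylation was read by reduced representation bisulfite sequencing. There MspI cuts the genome at CCGG and bisulfite turns unmethylated cytosines into uracil, read as thymine. Among the Creole libraries, Creole 1 came from the Sanmartinero breed, and both Creole 2 and Creole 3 came from the Costeno con Cuernos breed. Spanish 1 was of the breed Retinta, Spanish 2 of the breed Asturiana de los Valles, and Spanish 3 of the breed Lidia. The comparison addresses how Creole breeds of the Americas differ in methylation from breeds of Spain. Both groups mixed breeds, blood mixed cell types whose shares were not measured, and both the DNA extraction kit and the lane mark changed with the group, so that their part in a difference cannot be told apart from the breeds'.

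Autosomal read calls numbered from 38633007 in Spanish 1 to 80245850 in Creole 1. Creole 1 covered 3391903 autosomal cytosines and the other libraries between 669467 and 1632409. Of the 316 regions, the bin nearest the edge had 10 or more calls in 287 for Creole 1, 146 for Creole 2, 108 for Creole 3, 181 for Spanish 1, 244 for Spanish 2 and 190 for Spanish 3. The median number of calls in a measured bin of that kind was between 96 in Spanish 1 and 261.5 in Creole 3. Creole 1 was the only Creole library in 105 of the 297 regions measured in both groups there, and values without it are given below. Intervals on single-library values, where given, are 95% Wilson intervals, and a library at 0 allows up to 3 calls of its total. Over 30 flank values at 0 in the regions named below, that limit was 0.0613% to 20% of the calls, and it is given beside the values on few calls. Reads copied by PCR were not marked with molecular identifiers, so these intervals and limits cover counting error only.

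Inside the regions the groups stood far apart, because that difference is what placed them in the table. The recomputed methylation was higher in Creole in 220 regions, with group medians of 84.5% in Creole and 2.93% in Spanish. It was higher in Spanish in 96, with medians of 18.4% in Creole and 94.1% in Spanish. The median absolute difference inside was 71.0 percentage points over all 316, the smallest was 2.34, and the direction matched the authors' deposited table in 316 of 316. Levels were not matched in this way and could differ, as at LOC100336662, listed at 9% in Creole and recomputed at 59.0%. Each flank difference below is Creole minus Spanish, signed so that a positive value points the same way as the difference inside. The same libraries and the same contrast chose the regions and set their edges, so the flank values are given as a description, without a test.

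Within 100 bp of the edge, most of the difference was gone. Over 297 measured regions the median signed difference was 6.97 points (quartiles -2.90 and 23.6), against a median absolute difference of 70.7 inside the same regions. The flank pointed the same way as the region in 193, the opposite way in 88, and was level in 16. A difference of 25 points or more was present in the same direction in 66 regions (22.2%) and in the opposite direction in 24 (8.08%), or 30.3% in either direction. Over 393043 tiles of 100 bp outside the listed regions, which are narrower than a flank bin taken on both sides, the share with such a difference was 26.3% in either direction, 12.3% higher in Creole and 14% higher in Spanish. Single regions varied widely between animals, with a median SD of 13.3 points between the libraries of a group in this bin. Without Creole 1, only 139 regions could be measured, and their median was 0, with 35 (25.2%) at 25 points or more in the same direction and 18 (12.9%) in the opposite direction.

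The 2 directions gave different flank values. In 205 regions higher in Creole and measured in the near bin, the median flank level was 30.1% in Creole and 10.3% in Spanish, and the median signed difference was 11.6 points. At 25 points or more, 56 (27.3%) followed the region and 7 (3.41%) ran against it. In 92 regions higher in Spanish, the flank medians were 54.0% in Creole and 54.1% in Spanish, and the median signed difference was 0. Among these, 10 (10.9%) followed the region by 25 points or more and 17 (18.5%) ran against it. Without Creole 1 the median for regions higher in Creole was 3.55 points over 86 regions, with 30 (34.9%) following the region and 9 (10.5%) against it. For the Spanish direction it was 0 over 53 regions. Whether the 2 directions differ was not tested, since the regions were chosen on this contrast.

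The same picture held library by library when each library's methylation was averaged over the regions it measured. For regions higher in Creole, the means inside were 76.1%, 77.3% and 80.1% in Creole 1, 2 and 3, and 8.34%, 7.62% and 9.99% in Spanish 1, 2 and 3. They were, in the near bin, 38.6%, 35.2% and 39.2% in the Creole libraries, and 18.0%, 23.5% and 18.1% in the Spanish libraries. All 3 Creole libraries thus lay above all 3 Spanish libraries, with means of 37.7% ± 2.13 and 19.9% ± 3.15 (SD, n = 3 each). The corresponding means were 37.9% ± 3.90 and 30.02% ± 5.51 in the middle bin, and 44.1% ± 1.38 and 36.4% ± 1.17 in the far bin. In both of these bins the lowest Creole mean was still above the highest Spanish mean, by a small margin in the middle bin (35.0% in Creole 2 and 34.6% in Spanish 1). For regions higher in Spanish, the libraries of the 2 groups overlapped in every flank bin. Their means were 53.5% ± 1.36 and 51.6% ± 5.78 in the near bin, 60.6% ± 3.53 and 61.1% ± 1.44 in the middle bin, and 65.4% ± 7.09 and 64.4% ± 0.295 in the far bin, with Creole given first. Each library averages over the regions it happened to cover, so these means compare partly different sets of regions.

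**Figure D1:**
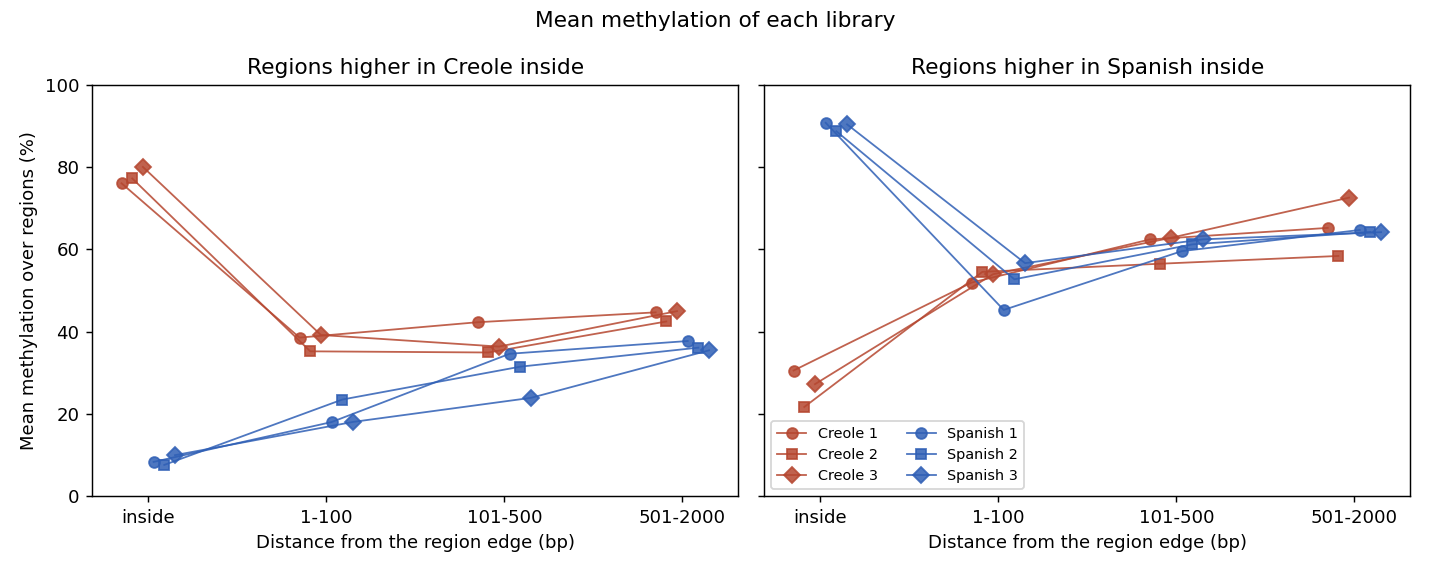
Mean methylation (%) of each library over the listed regions it measured, inside the region and in the 3 flank bins (distance from the edge in bp), for the 220 regions higher in Creole and the 96 higher in Spanish. Points are single libraries, 3 per group. In the left panel the Creole libraries stay above the Spanish libraries in every bin, from 37.7% against 19.9% in the near bin to 44.1% against 36.4% in the far bin, while in the right panel the groups mix outside the region.

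Finer steps of distance showed a drop by 3 to 10 bp from the border and a slow rise beyond it. For regions higher in Creole, the median Creole level fell from 84.5% inside to 23.1% at 3 to 10 bp (119 regions) and was 42.4% beyond 1000 bp (135 regions). The Spanish median was 2.93% inside, 0 at 3 to 10 bp and 33.3% beyond 1000 bp. For regions higher in Spanish, the Spanish median went from 94.1% inside to 47.9% at 3 to 10 bp (37 regions) and 79.4% beyond 1000 bp (55 regions), while the Creole median went from 18.4% to 39.6% and 75.5%. Beside the Creole-high regions both groups thus sat at low to middle levels, and beside the Spanish-high regions both sat higher. For comparison, the median 100 bp tile outside the listed regions was at 67.4% in Creole and 71.4% in Spanish. The step of 1 to 2 bp rested on 19 regions in each direction, where the second strand of an edge CpG can lie. Its medians were 4.55% in Creole and 3.68% in Spanish beside the Creole-high regions. Beside the Spanish-high regions they were 82.1% in Creole and 100% in Spanish, so the Spanish median had not dropped there. Leaving out those bases, an alternative chosen after the data were seen, gave a median of 7.79 points for the near bin.

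**Figure D2:**
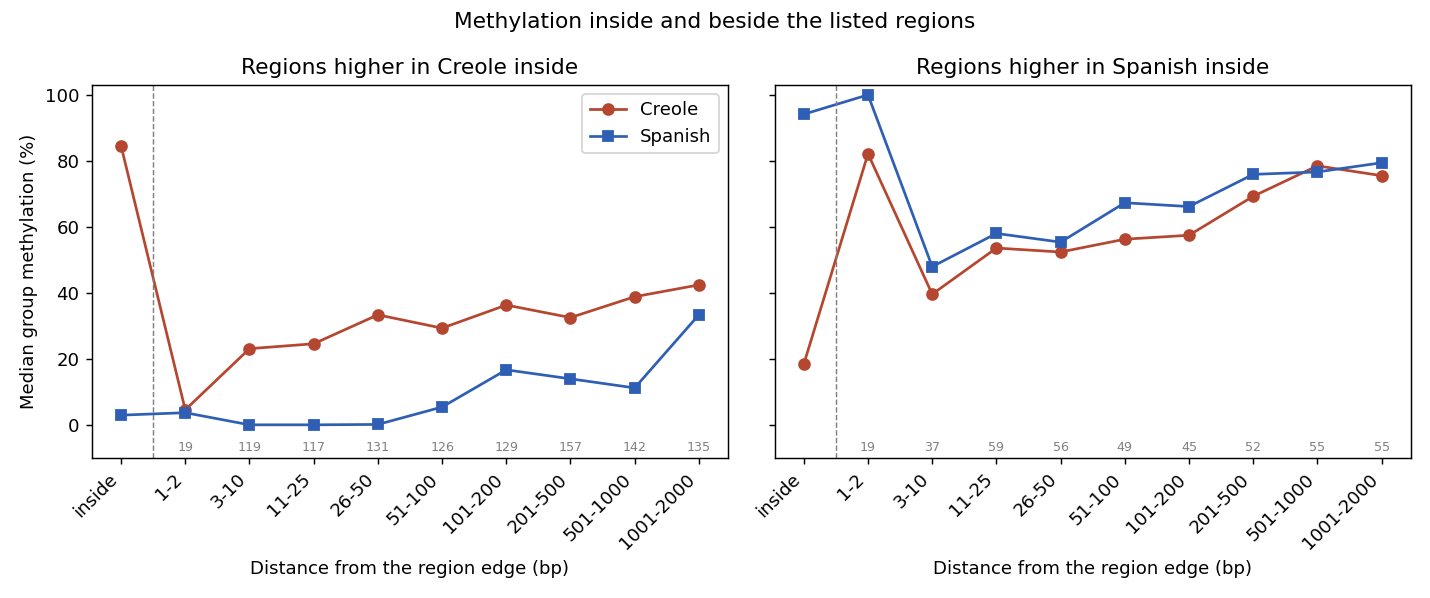
Median group methylation (%) inside the listed regions and in 9 steps of distance from the edge (bp), for regions higher in Creole (left) and higher in Spanish (right). Each point is the median over regions of a group's mean, grey numbers give the regions measured in both groups, and the dashed line marks the edge. From inside to 3 to 10 bp, Creole falls from 84.5% to 23.1% on the left. On the right, Spanish falls from 94.1% to 47.9% over the same steps and Creole rises from 18.4% to 39.6%. At 1 to 2 bp, on 19 regions in each panel, Creole is at 4.55% on the left and Spanish at 100% on the right.

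The border was also read from single cytosines, by setting the last measured cytosine inside a region beside the nearest measured cytosine outside it, within 100 bp. There were 400 such edges in 265 regions, with the outside cytosine a median of 10.5 bp away. The median signed difference was 100 points at the cytosine inside and 0 at the cytosine outside, where the mean was 12.7. The outside cytosine differed by 10 points or less in 253 edges (63.25%), by 25 or more in the same direction in 100, and by 25 or more in the opposite direction in 23. In 272 edges the same libraries were read at both cytosines, with calls outside between 90% and 110% of those inside in every library. Among these, 190 (69.9%) were within 10 points, 65 were at 25 or more in the same direction and 8 at 25 or more in the opposite direction. The edges were set on the same libraries, so the step at the edge is a description and no test of it was run. No such share was measured over all single cytosines, so nothing is read from these counts about how sharp a border is.

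Single edges read at equal depth in 2 or more libraries of each group showed different patterns. One was at a region with no listed gene on chromosome 1, from 90311237 to 90311307 in UMD3.1, chosen after its values were seen. Its first cytosine read 0% in Creole 1 and Creole 3 and 100%, 100% and 96.5% in Spanish 1, 2 and 3, on 31, 78, 150, 41 and 115 calls. The cytosine 40 bp before the start read 0% in those 5 libraries, on the same numbers of calls. Both groups were thus unmethylated just outside a region where the inside separated them in full. At IQSEC3, which encodes an exchange factor for ARF GTPases (exon, chromosome 5, 107608032 to 107608116, also chosen after its values were seen), the 2 sides differed from each other. Inside at the start, Creole 1 and Creole 2 read 79.3% and 100% on 82 and 147 calls, and Spanish 2 and Spanish 3 read 0% on 12 and 95 calls. The cytosine 12 bp before the start read 88.0%, 100%, 100% and 100% in that order, so the Spanish libraries were methylated there too. The cytosine 6 bp after the end read 22.5%, 100%, 0% and 0%, and at that side Creole 2 kept its difference from the Spanish libraries. NRXN2, which encodes the synaptic adhesion protein neurexin (chromosome 29, 43512748 to 43512817, chosen after its values were seen), had similar differences inside and 77 bp after its end. They were 30.6 points inside and 28.8 outside, with 6 libraries read on 12 to 207 calls, and the groups overlapped at both cytosines. Inside, Creole 1, 2 and 3 read 12.5%, 50% and 98.1%, and Spanish 1, 2 and 3 read 10.8%, 0% and 58.1%. Outside they read 14.1%, 50% and 98.1%, and 0%, 75.8% and 0%, so Spanish 2 and Spanish 3 changed places while the Creole libraries hardly moved.

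The wider bins farther out gave smaller medians over all regions. In the middle bin, 240 regions were measured, with a median of 4.18 points, and 39 (16.25%) followed the region by 25 points or more while 20 (8.33%) ran against it. In the far bin, 250 regions were measured, with a median of 3.52 points, and 31 (12.4%) followed while 18 (7.2%) ran against it. Over 216938 tiles of 500 bp outside the listed regions, 19.5% differed by 25 points or more in either direction, 8.95% higher in Creole and 10.6% higher in Spanish, beside 24.6% and 19.6% of the flanks in these bins. Both bins, taken on both sides of a region, are wider than such a tile, so the shares are set side by side and not compared. For regions higher in Creole the medians were 6.38 and 4.49 points, with flank levels of 34.5% in Creole and 18.3% in Spanish, then 38.2% and 25.2%. For those higher in Spanish the medians were 0.35 and 0.93 points, after 0 in the near bin. In finer steps the median for regions higher in Creole did not fall steadily, at 10.7 points from 51 to 100 bp, 5.93 in the next 100 bp, 7.28 from there to 500 bp, 7.48 from there to 1000 bp and 1.44 beyond. Without Creole 1 the medians over all directions were 0 in the middle bin (73 regions) and 0.75 in the far bin (93 regions), and those for regions higher in Creole were 0 and 2.13.

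**Figure D3:**
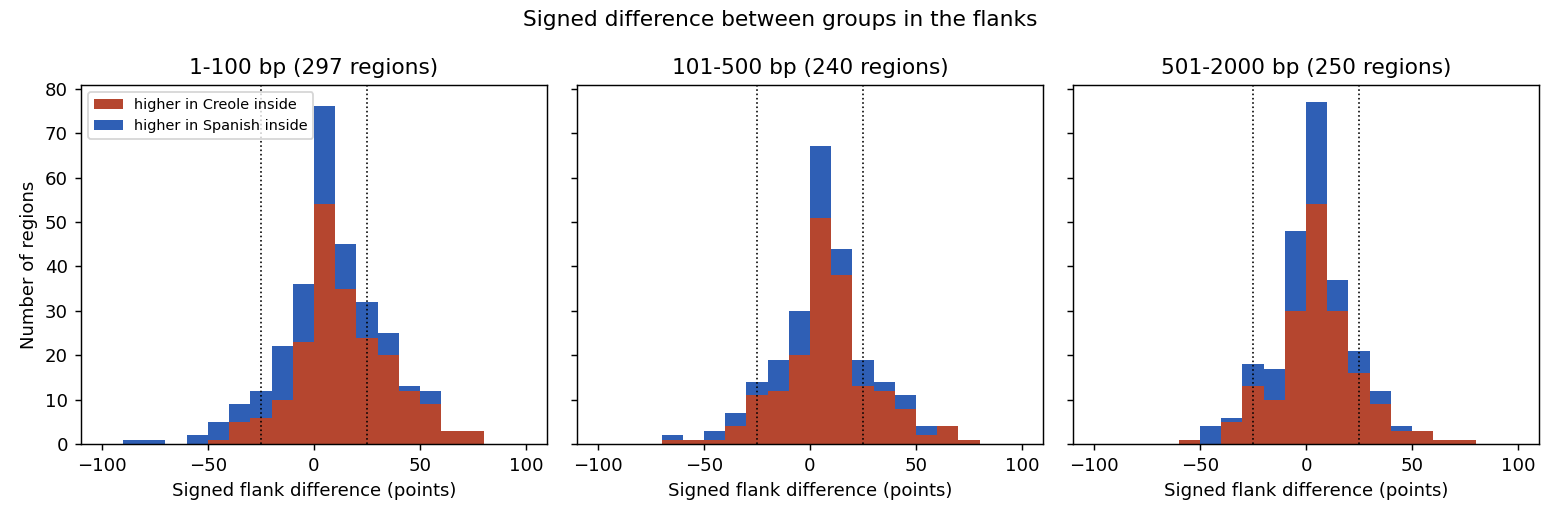
Number of regions by signed flank difference (Creole minus Spanish in percentage points, positive where it points the same way as inside) in the 3 bins, with regions higher in Creole and higher in Spanish stacked. Dotted lines stand at 25 points in either direction. The medians are 6.97, 4.18 and 3.52 points, and 66, 39 and 31 regions lie at or beyond the right-hand line.

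Flanks that differed in the near bin were also followed into the farther bins. Of 54 regions at 25 points or more in the same direction in the near bin and measured in the middle bin, 10 were at 25 or more there too, as were 27 of 172 that were under 25 points in the near bin. Of 53 measured in the far bin, 7 were at 25 or more, beside 22 of 182. Over all measured flanks, 16.25% followed by 25 points or more in the middle bin and 12.4% in the far bin. The counts lie near these shares, so they are not read as a trait of flanks that differed in the near bin. No region, 0 of 182 measured throughout, kept 25 points or more in its own direction in all 3 bins. No such share was measured over other sequence, so nothing is read from that count. In 12 all 3 bins were within 10 points of 0. In 1, a locus with no listed gene on chromosome 14 starting at 3256877 (chosen after its values were seen), all 3 bins ran 25 points or more against the region, at -50, -26.0 and -51.3, with a single Spanish library in each bin. The 10 regions that kept 25 points through the first 2 bins included F1MPI7_BOVIN, E1BAD4_BOVIN, GPC5, which encodes a cell-surface heparan sulfate proteoglycan, and SERPINB1, which encodes an inhibitor of neutrophil serine proteases, the latter 2 named after their values were seen. SERPINB1 had signed differences of 29.4, 45.8 and 2.01 points from the near to the far bin.

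The sides of a region were also taken apart, as an equal unit each. In the near bin, 60 of 234 sides before the start and 68 of 223 after the end followed the region by 25 points or more. Both sides did so in 14 of 163 regions with both measured. Both did in 9 of 87 in the middle bin, and in the far bin in 6 of 114. Against the region by 25 points or more were 20 and 22 sides in the near bin, and both sides in 0 of 163, 0 of 87 and 3 of 114 regions. Nothing is read from these counts, since no share over all features was measured for both sides.

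To set the flanks beside other sequence, the neighbourhood of 100 bp tiles that differed strongly between the groups but lay away from listed regions was measured in the same bins, a comparison chosen after the data were seen. Around 14780 tiles that differed by 70 points or more, 24.3% of neighbouring tiles in the near bin followed by 25 points or more and 22.0% ran against, with a median of 0. The shares in the middle bin were 16.8% and 18.2%, and in the far bin 15.1% and 13.5%. The flanks with each side as a unit gave 28.01% and 9.19%, 19.7% and 6.88%, and 14.6% and 7.71% in the 3 bins. The units differ in width, since a neighbour is a tile of 100 bp while a flank side joins all cytosines of its bin, and wider units differ by 25 points less often (26.3% of 100 bp tiles and 19.5% of 500 bp tiles). The shares are therefore given side by side and not compared.

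The authors' deposited table also places each region by CpG island and gene, and the flanks were grouped by these marks. Of 78 Creole-high regions in the core of a CpG island, 76 were measured in the near bin. Their flank medians were 27.6% in Creole and 5.64% in Spanish, the median signed difference was 15.6 points, 23 (30.3%) followed by 25 points or more and 0 ran against. The share over tiles of the same class was not measured, and both groups sat low here. The counts by class, here and below, are therefore not read as a trait of the class. In the next bins the island-core medians were 10.5 points (70 regions, 16 following and 1 against) and 8.16 points (62 regions, 10 following and 2 against). Creole-high regions with no island listed had medians of 4.92, 3.32 and 3.51 points, on flank levels of 39.3% in Creole and 14.1% in Spanish in the near bin and 61.2% and 55.1% in the far bin. Creole-high regions on an island shore or shelf had medians of 15.7 (18 regions), 6.65 (14 regions) and -0.53 points (17 regions). The quartiles of the last were -12.4 and 13.4 points. Without Creole 1 the island-core medians were 8.64 points (27 regions, 13 following and 1 against), 0.049 (18 regions) and 7.66 (16 regions).

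Promoters gave the lowest flank levels of the gene classes. The 13 regions on promoters, all measured in the near bin, had medians of 8.52% in Creole and 0 in Spanish and a median signed difference of 8.28 points, with 3 following by 25 points or more and 0 against. Regions on exons or exon boundaries (55 measured) had a median of 10.7 points, introns (60) 4.94, and regions outside genes (169) 5.68. The Spanish-high regions were rare in island cores, with 10 measured in the near bin, a median of -2.03 points and 2 running against by 25 points or more. The 78 of that direction with no island listed had a median of 0 on levels of 58.3% in Creole and 56.4% in Spanish, and the 4 on a shore or shelf had a median of 14.7, with 3 in the region's direction and 0 against. None of these classes was compared by a test, and their counts have no share over tiles of the same class beside them.

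Pairs of libraries showed how much of the flank difference lay between groups. Inside the regions, the mean absolute difference between 2 libraries of the same group was 7.97 to 30.7 points over 6 pairs, and between a Creole and a Spanish library 57.6 to 68.1 over 9 pairs, so the 2 kinds of pair did not overlap. The ranges in the near bin were 18.3 to 31.6 and 20.8 to 27.1. The 2 largest values of all were within the Creole group, 29.1 points for Creole 1 with Creole 2 and 31.6 for Creole 1 with Creole 3. Both join the Sanmartinero library to a Costeno con Cuernos library. The lowest value of all, 18.3 points, was for Creole 2 with Creole 3, which share a breed. Each pair was measured over its own set of regions, from 61 to 226 in this bin, and the part of breed or coverage was not tested. In the middle bin the ranges were 16.8 to 22.0 and 20.4 to 27.1, and in the far bin 13.2 to 22.1 and 15.4 to 21.4. In every flank bin the 2 kinds of pair overlapped.

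**Figure D4:**
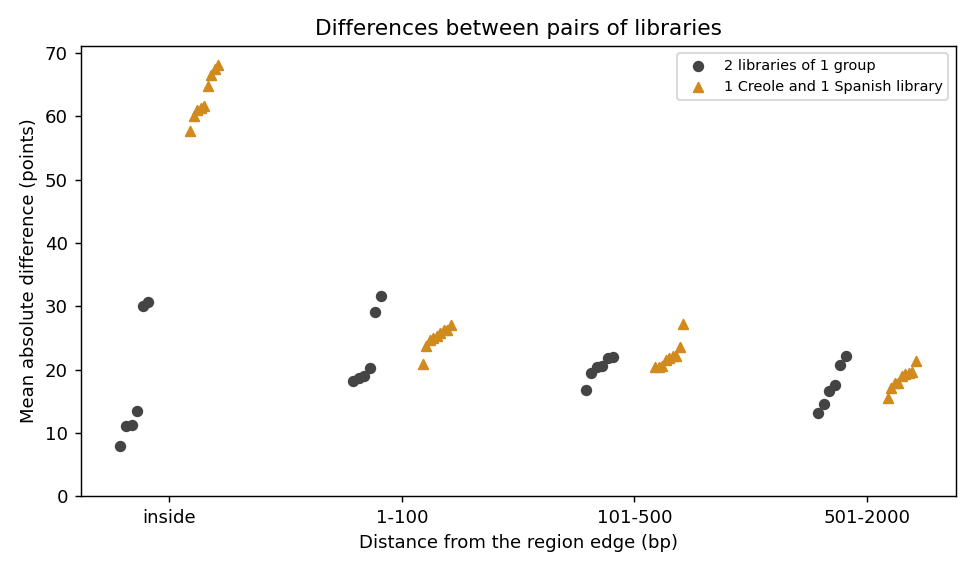
Mean absolute methylation difference (percentage points) between 2 libraries, inside the regions and in the 3 flank bins (bp), for the 6 pairs within a group (circles) and the 9 pairs of a Creole and a Spanish library (triangles). Inside, the between-group pairs lie at 57.6 to 68.1 and the within-group pairs at 7.97 to 30.7, whereas in the near bin they span 20.8 to 27.1 and 18.3 to 31.6.

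Within a library, the flank level was also set beside the level inside. In the near bin, where a library read 80% or more inside (337 library values), its flank had a median of 55.6%, with 86 values at 80% or more and 82 at 20% or less. Where it read 20% or less inside (422 values), the flank median was 0, and 292 values were at 20% or less. Where it read between 20% and 80% inside (220 values), the flank median was 44.4%, with 41 values at 80% or more and 67 at 20% or less. These counts pool both directions and all island classes, whose flank levels differ. No share over other sequence was measured, so no link between inside and flank is read from them. For insides at 80% or more and at 20% or less, the flank medians were 66.7% and 13.2% in the middle bin. In the far bin they were 71.2% and 26.7%. Values of 1 region come from several libraries and are not independent, so no test was run.

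Most single cytosines read all or nothing. Among cytosines with 10 or more calls in the near bin, between 67.8% and 93.8% of those in a library were at exactly 0% or 100%, with a median over libraries of 90.3%. The share was 91.1% inside the regions and 89.7% over the other autosomal cytosines, as medians over libraries, with Creole 1 lowest in each place (71.3% inside and 69.1% elsewhere). The median cytosine of the near bin had 21 calls in Creole 1 and 95 in Creole 3. The part of such cytosines in the flank differences was not tested.

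Single regions depended on which animals and which cytosines were read. Of the 31 regions named below by rank or depth, 22 moved by over 1.5 times when some library was left out. On shared cytosines, meaning those covered in both groups (a setting chosen after the data were seen), 30 could be measured, of which 19 moved by over 1.5 times or changed sign. Values without a library or on shared cytosines are given beside each region they move that far.

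The largest flank differences in the nearest bin, among regions with 2 or more measured libraries per group, carried the region's difference outward in some libraries only. At a locus with no listed gene on chromosome 8, from 86683506 to 86683630, Creole 1 read 41.9% on 62 calls and Creole 3 100% on 128 calls in the near bin. Spanish 2 and Spanish 3 read 0% on 33 and 39 calls, which allow up to 9.09% and 7.69%. The 2 groups did not overlap, at 71.0% ± 41.1 and 0% (SD, n = 2 each), and the inside read 99.2% in Creole 3 (the only Creole library there) and 0% in all 3 Spanish libraries. Its signed difference in the middle bin was 5.87 points. No near value could be measured on shared cytosines, so there the groups were read at different cytosines.

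F1MPI7_BOVIN, named in the table by its protein entry (intron-exon boundary, chromosome 17, 63376130 to 63376228), read 73.3% in Creole 1 and 40.5% in Creole 2 in the near bin, and 0% in Spanish 1 and Spanish 2. Both Creole libraries lay above both Spanish libraries, at 56.9% ± 23.1 (SD, n = 2) against 0%, where 34 and 152 calls allow up to 8.82% and 1.97%. Creole 1 read 84.9% in the middle bin, while Creole 2 joined the Spanish libraries at 0%. Left with Creole 2 alone, the near difference was 40.5 points, and with Creole 1 alone 73.3. On shared cytosines it was 37.6.

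Among all regions with 2 or more libraries per group, the groups did not overlap in the near bin in 24 of 123 (19.5%), 21 of them in the region's direction, beside 17.7% of 93216 tiles of 100 bp. They did not overlap in 33 of 136 (24.3%) in the middle bin, 25 in the region's direction, and in the far bin in 36 of 171 (21.1%), 22 in the region's direction, beside 20.4% of 73360 tiles of 500 bp. The tiles are narrower than the bins taken on both sides, so these shares are not compared.

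The third of the near-bin regions, F1N766_BOVIN (intron, chromosome 15, 78251395 to 78251471), carried the Spanish direction. It read 7.27% and 25% in Creole 1 and Creole 2, and 46.6% and 98.2% in Spanish 1 and Spanish 2, without overlap between groups. Without Spanish 2 its difference of 56.3 points was 30.5. Q2KHW2_BOVIN (outside genes, chromosome 23, 42372372 to 42372462) read 72.5% and 66.7% in Creole 1 and Creole 2, and 9.68%, 32.6% and 0% in Spanish 1, 2 and 3. Its difference of 55.5 points in the near bin was 3.32 in the middle bin and -15.4 in the far bin. At A1A4P2_BOVIN, a promoter on an island shore (chromosome 11, 107201838 to 107201928), the Creole animals went opposite ways. Creole 1 read 89.2% inside and 11.1% in the flank, while Creole 3 read 0% inside and 100% in the flank, the latter on 14 calls (interval 78.5% to 100%). The 53.9 points of that flank thus came from Creole 3, and without it the difference was 9.49. Without Creole 1 all libraries read 0% inside, which leaves no direction to sign by, and the value was 0.

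Among regions with 2 or more measured libraries per group, the 5 flanks farthest against their region in the nearest bin were all beside regions higher in Spanish. Over all measured regions, 24 near flanks ran against by 25 points or more, 7 of them beside regions higher in Creole. At F1N2I2_BOVIN (exon, chromosome 2, 131594194 to 131594256), Creole 1 and Creole 2 read 98.6% and 75% in the near bin, and Spanish 1 and Spanish 3 read 0% and 79.7%. The Spanish 1 value rested on 23 calls, which allow up to 13.04%, and without that library the difference went from -47.0 to -7.13 points. Without Spanish 3 it was -86.8, and on shared cytosines it was 0.36, so its direction was lost. GPR132, which encodes a G protein-coupled receptor of leukocytes (outside genes, chromosome 21, 71127334 to 71127406), read 66.3% and 67.9% in Creole 1 and Creole 2, and 0%, 100% and 0% in Spanish 1, 2 and 3. Its differences were -33.8 points in the near bin, 54.1 in the middle bin and 0.59 in the far bin, so a single region held both directions. The Spanish values of 0 rested on 34 and 48 calls, which allow up to 8.82% and 6.25%. Without Spanish 2 the near difference was -67.1, and without Spanish 1 or Spanish 3 it was -17.1. E1BH37_BOVIN (outside genes) was at -32.5 and -31.0 points in the first 2 bins, and the near value was -18.4 without Spanish 1 and -19.0 on shared cytosines. LOC100336662, which a RefSeq list of the later assembly ARS-UCD2.0 names LGR6, a receptor for R-spondins, was at -31.1 and then 36.1. Its near value was -7.11 without Creole 1, -55.1 without Creole 2 and -18.01 without Spanish 2, and on shared cytosines it turned to 25 points in the region's direction. F1MYQ2_BOVIN (outside genes) was at -35.4 and then -6.98, and its near value was -55.2 and -15.6 without Creole 1 and Creole 2, and -54.96 and -15.9 without Spanish 1 and Spanish 2.

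Among regions with 2 or more libraries per group, the largest difference in the middle bin was at a region near E1BIV1_BOVIN. It lay in an island core on chromosome 3 (82588047 to 82588150). Its flank read 41.1%, 93.5% and 93.3% in Creole 1, 2 and 3, and 20.1%, 0% and 14.3% in Spanish 1, 2 and 3. The lowest Creole library was above the highest Spanish library, at 76.0% ± 30.2 and 11.5% ± 10.3 (SD, n = 3 each). The difference was -2.55 points in the near bin and -16.1 in the far bin. The flank thus followed the region in the middle bin only.

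DLC1 (exon, chromosome 27, 22980537 to 22980606) read 97.6% and 100% in Creole 1 and Creole 2, and 25.6% and 50% in Spanish 2 and Spanish 3, on 4 cytosines, and its difference of 61.0 points was 23.8 on shared cytosines. E1BAD4_BOVIN (outside genes, island core, chromosome 1, 148777526 to 148777615) read 65.6% and 50% in Creole 1 and Creole 2, and 0%, 11.7% and 0% in Spanish 1, 2 and 3. Neither overlapped between groups. At DLC1 the only Spanish library inside was Spanish 1, so no Spanish animal was read both inside and in this flank. At E1BAD4_BOVIN the Spanish values of 0 rested on 21 and 44 calls, which allow up to 14.3% and 6.82%. Its difference was 44.1 points in the near bin, 53.9 in the middle bin and 3.52 in the far bin, and the middle value was 8.77 on shared cytosines. TNRC18 (intron, chromosome 25, 39462735 to 39462803) was higher in Spanish inside and in this bin, with 77.8%, 59.0% and 0% in Creole 1, 2 and 3 and 89.3% and 100% in Spanish 2 and Spanish 3. Its 49.1 points were 26.3 without Creole 3 and 5.56 on shared cytosines.

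Several flanks in the middle bin turned over. MFHAS1, which encodes a protein with leucine-rich repeats and a GTPase-like domain (exon, chromosome 27, 24101064 to 24101159), was higher in Creole inside, with 43.2% in Creole 1 and 0% in Spanish 1 and Spanish 2. Its flank read 62.2% and 0% in Creole 1 and Creole 2 and 91.3% and 96.3% in Spanish 2 and Spanish 3, a signed difference of -62.7 points. Without Creole 2, whose value rested on 25 calls (allowing up to 12%), it was -31.6, and on shared cytosines -31.0. SGSM2, which encodes a modulator of small GTPases (intron-exon boundary, chromosome 19, 23918084 to 23918205), stood at 69.6 points in the near bin and -44.0 in the middle bin. In the farther bin Creole 3 read 2.63%, Creole 1 84.2% and Creole 2 57.1%, and Spanish 1 and Spanish 2 read 100% on 10 calls and 84.0%. Without Creole 3 this was -21.3 points. LOC100140960, named CNTN2 in the RefSeq list and encoding a neural adhesion protein, was at -44.7 points, and -24.7 without Spanish 3. F1MZ13_BOVIN was at -36.7, with 29.2%, 0% and 0% in the Creole libraries and 100%, 12.3% and 27.1% in the Spanish libraries. Without Spanish 1 it was -9.93, and on shared cytosines -4.57.

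In the far bin the largest difference, by the same rule, was at an unnamed gene model on chromosome 18 (ENSBTAG00000047937, 1879208 to 1879301). Creole 1 and Creole 2 read 79.8% and 77.8%, and Spanish 1, 2 and 3 read 0%, 6.12% and 11.5%, so the groups lay wide apart, at 78.8% ± 1.42 (SD, n = 2) and 5.87% ± 5.75 (SD, n = 3). The 0% of Spanish 1 rested on 30 calls, which allow up to 10%. On shared cytosines the difference was -23.2 points, so the groups covered different cytosines of this flank. HPCL1_BOVIN, the calcium sensor hippocalcin-like protein (intron, chromosome 11), stood at 51.3 points, with 45.9% and 88.8% in Creole 1 and Creole 3 and 0%, 23.1% and 25.1% in the Spanish libraries. It was 29.8 without Creole 3 and 16.98 on shared cytosines. Inside, HPCL1_BOVIN was read in Creole 2 alone of the Creole libraries, so no Creole animal was read both inside and in this flank. E1BLM4_BOVIN, a promoter in an island core on chromosome 1, stood at 44.4 points, with 7.19%, 59.1% and 66.8% in the Creole libraries and 0% in Spanish 2 and Spanish 3. Without Creole 1 all libraries read 0% inside, which leaves no direction, and the value was 0. LTBP3, which encodes a binding protein of latent TGF-beta, was higher in Spanish, at 41.6 points, with 55.6%, 0% and 93.0% in the Creole libraries against 84.4%, 95.8% and 93.1%. In the near and middle bins LTBP3 stood at 6.97 and -35.3 points. Its Creole libraries spanned almost the whole scale, and the difference was 16.8 without Creole 2, 63.3 without Creole 3 and 6.44 on shared cytosines.

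The far flank also held reversals, and of the 4 lowest by the same rule 1 was measured in all 6 animals. ARHGEF19 (exon, chromosome 2, 136482715 to 136482801) was higher in Creole inside, with 64.3% and 71.4% in Creole 1 and Creole 2 and 7.14%, 0.18% and 0% in the Spanish libraries. It read, in the far bin, 54.8%, 58.1% and 0% in Creole 1, 2 and 3 and 67.4%, 70.9% and 82.2% in Spanish 1, 2 and 3, on 92 to 1089 calls. All Creole libraries were below all Spanish libraries there, at 37.6% ± 32.6 and 73.5% ± 7.72 (SD, n = 3 each), while the 2 nearer bins differed by 4.44 and 2.73 points. Without Creole 3 the difference was -17.0, and on shared cytosines -10.4. Another 3 regions lay outside genes and are named by a listed gene. They were at -48.5 points (an unnamed gene model on chromosome 23, ENSBTAG00000006864), -44.7 (E1BMV7_BOVIN) and -38.1 (ADAMTS7, which encodes a secreted metalloprotease). The ADAMTS7 region is listed at -53864 bp from the start of that gene, and its flank read 67.1%, 0% and 80% in the Creole libraries. On shared cytosines these 3 regions were at 0, -28.1 and -15.6 points, in that order. Without a library E1BMV7_BOVIN was at -67.4 (Creole 1), -22.1 (Creole 2) or -29.6 (Spanish 3), and ADAMTS7 at -13.6 without Creole 2. Inside, the only Spanish library was Spanish 1 at E1BMV7_BOVIN and Spanish 3 at ADAMTS7. Neither was read in the far flank there, so the sign and the flank came from different Spanish animals.

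**Figure D5:**
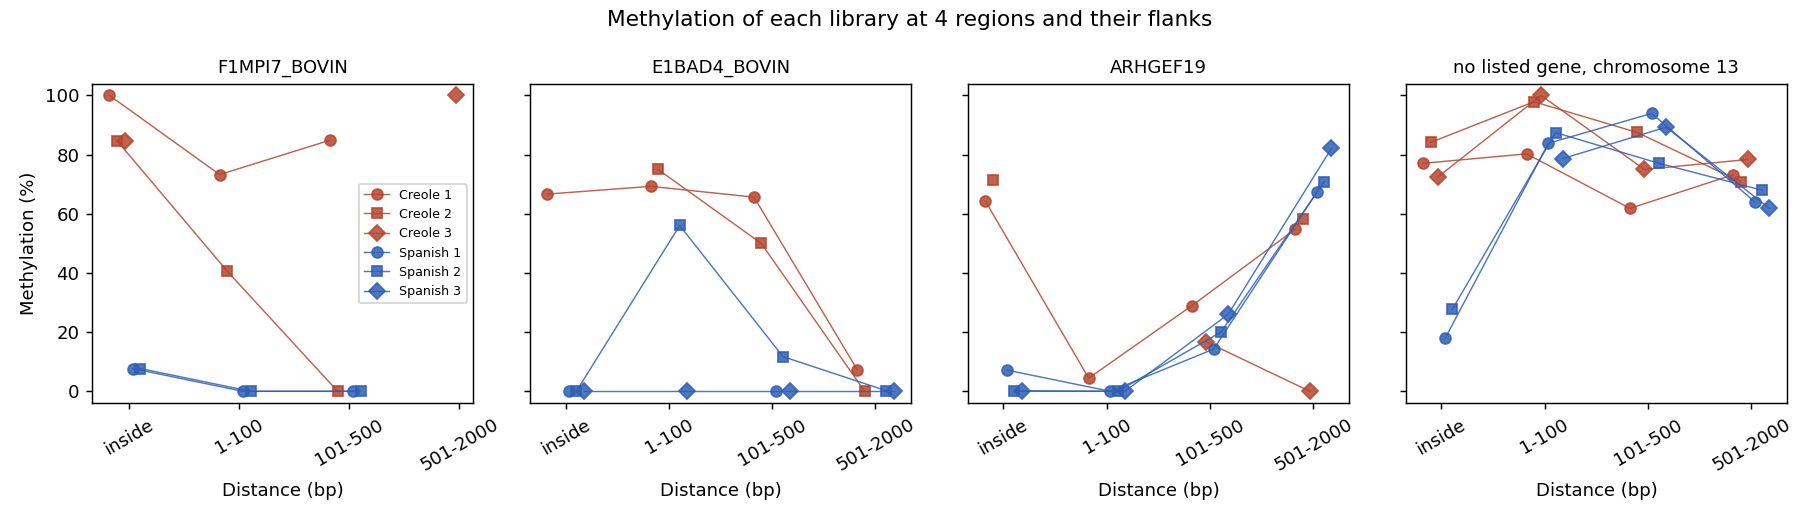
Methylation (%) of each library inside 4 listed regions and in their 3 flank bins (distance in bp), where points are libraries with 10 or more calls and lines join the values of a library. F1MPI7_BOVIN and E1BAD4_BOVIN keep the Creole libraries above the Spanish libraries in the near bin, ARHGEF19 turns over in the far bin (37.6% against 73.5%), and at the chromosome 13 locus the Spanish libraries rise from 22.8% inside to 83.3% in the near bin, near the Creole 92.7%.

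The 5 regions whose far flanks were read most deeply in all 6 libraries had far differences between -5.58 and 9.55 points, while their nearer bins varied more. At a locus with no listed gene on chromosome 13 (49018318 to 49018382), the inside read 77.1%, 84.1% and 72.4% in Creole 1, 2 and 3 and 17.8% and 27.7% in Spanish 1 and Spanish 2. Its far flank, on 193 cytosines, read 73.2%, 70.9% and 78.4% in the Creole libraries and 64.0%, 68.0% and 61.8% in the Spanish libraries, on 2218 to 30937 calls. The groups did not overlap, at 74.1% ± 3.84 and 64.6% ± 3.12 (SD, n = 3 each), with a difference of 9.55 points, against 55.1 inside. In between, the middle bin ran against the region, at -12.0 points. The groups overlapped in the near bin, where all 6 libraries were also read, with 92.7% ± 10.8 and 83.3% ± 4.41.

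Beside the unnamed chromosome 4 locus starting at 28979524, an island core, the inside read 92.2% and 81.3% in Creole 1 and Creole 3 and 19.3% in Spanish 1. Its far flank read 78.0%, 76.9% and 70.02% in the Creole libraries and 81.3%, 80.8% and 79.5% in the Spanish libraries, all on more than 1000 calls. Every Spanish library was thus above every Creole library by a small distance (5.58 points, and 3.11 without Creole 3), at 80.55% ± 0.915 against 74.97% ± 4.32 (SD, n = 3 each). E1BK14_BOVIN on chromosome 12 overlapped between groups, at 75.5% ± 13.7 and 72.0% ± 8.72, as did the chromosome 25 gene model ENSBTAG00000047264, at 16.1% ± 8.52 and 15.4% ± 6.13, on 15327 to 25799 calls. E1BK14_BOVIN stood at 46.6, 13.4 and 3.51 points from the near to the far bin, and its far value was 24.4 on shared cytosines and -3.71 without Creole 3, -0.087 without Spanish 1, 2.26 without Spanish 2 and 8.36 without Spanish 3. ENSBTAG00000047264 stood at 0.31, -65.5 and -0.69 points, and its far value ranged from -4.67 to 3.80 when a library was left out. At F1N0M5_BOVIN, outside genes in an island core of chromosome 12, all 6 libraries were at or below 0.48%, although Creole 2 read 83.3% inside and the near bin differed by 46.0 points. Its far difference of 0.20 points was 0.063 without Creole 1.

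A test was run on the autosomal tiles whose cytosines were covered in all 6 libraries, a small part of all tiles. Of 7207 such 100 bp tiles, 51 lay in flanks: 10 in the near bin, 10 in the middle bin and 31 in the far bin. Only 4 lay inside listed regions, and 0 of these 4 passed the test below. Its result therefore does not set flanks apart from regions. With edgeR's quasi-likelihood test and Benjamini-Hochberg adjustment over all 7207 tiles, 0 flank tiles and 0 of all tiles (0%) passed an adjusted p of 0.05, while before adjustment 1 of 51 and 306 of 7207 had p under 0.05. In place of it, edgeR's likelihood ratio test called 1 flank tile and 79 of all tiles, and limma called 0 flank tiles and 1 of all. The p-values set the difference between groups, with which kit and lane mark changed, against the spread between animals of mixed breeds. Since the regions were listed on these libraries, the p-values do not test the flanks independently.

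The flank tile of smallest p lay 520 bp on average from a region outside genes near DLX6, a homeobox transcription factor gene (tile on chromosome 4, 14273301 to 14273400). It read 26.8%, 63.8% and 65.7% in Creole 1, 2 and 3 and 0%, 2.56% and 4% in Spanish 1, 2 and 3. The groups did not overlap, at 52.1% ± 21.9 and 2.19% ± 2.03 (SD, n = 3 each). Its adjusted p by edgeR was 0.918. Its 3 cytosines had 24 to 231 calls in a library. The next 2 tiles, side by side on chromosome 5 from 115730501 to 115730700 beyond an island-core region near F1MUT5_BOVIN, read 16.6% ± 15.2 against 0.28% ± 0.13 and 21.8% ± 19.1 against 0% (SD, n = 3 each). By edgeR the adjusted p was 0.958 for both. In each, Creole 2 was with the Spanish libraries, at 0.28% and 0%, while Creole 1 and Creole 3 were between 19.0% and 35.3%.

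Of 32 marker genes of blood cell types, 1 was named in the autosomal table, CD5, a receptor of T cells (region outside genes on chromosome 29, 38003019 to 38003086, listed there as CD5_BOVIN). Inside, Creole 1 and Creole 3 averaged 1.02% ± 1.44 (SD, n = 2) and Spanish 2 read 42.3%. In the near bin, Creole 1, Creole 3 and Spanish 2 all read 0%, on 48, 140 and 66 calls. In the far bin Creole 1 and Creole 2 read 64.8% and 0%, and Spanish 1 and Spanish 2 read 12.8% and 23.5%, so the groups overlapped. In mixed blood, a different share of cells and a different level within cells cannot be told apart, and cell shares were not measured.

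The minimum of 10 calls decided which library values counted. In the near bin, 66 values just below it, with 5 to 9 calls, had a median of 35.4%, and 43 values just above it, with 10 to 14 calls, had a median of 0. In the middle bin these medians were 41.7% and 38.5%, and in the far bin 70.8% and 80%.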

How the data were processed

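Per the labels, blood DNA was cut with MspI, size selected at 175 to 225 bp, bisulfite converted, amplified over 20 PCR cycles and sequenced. Trim Galore, Bismark, methylKit and build UMD 3.1 stand in the submitters' processing notes. Not given in the sources used here: what each did, the handling of duplicates and the region caller.

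The files that the authors deposited hold, for each library, the count of methylated and of unmethylated calls per covered CpG cytosine, not normalized, with the percent beside it. The authors' table of regions gives group means as a fraction, written here as percent, and a score per region (difference and area statistic), whose sign alone was used. In 3 rows the listed length is not that from start to end, and start and end were used. No genome of this build was at hand, so sequences were not analysed here.

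A library's level was methylated over all calls in a bin, with 10 or more calls. Group values are means over libraries. Regions and lists were chosen with earlier results of these data known. Named are, among regions with 2 or more libraries per group, the 5 highest and 5 lowest signed differences at 1 to 100 bp and the 4 highest and 4 lowest in each farther bin, the 5 most deeply read in all 6 libraries, and the 3 flank tiles of smallest p. Others are marked. Tiles of cytosines covered in all 6 libraries were fitted with edgeR 4.0.16 (quasi-likelihood, a term per library, methylated beside unmethylated calls) in R 4.3.3, and with limma 3.58.1. P-values set the difference between groups against the spread between these animals. The code was tested on simulated data. Alternatives changed the call minimum, the libraries needed, the weighting of cytosines and sides, the coverage cap, the tiles and the test, or left out each library in turn. Replicate numbers follow sample order. Python 3.11.15, numpy 2.4.6, pandas 2.3.3, scipy 1.17.1 and matplotlib 3.10.9 were used.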

Additional observations from a re-analysis of the deposited data

How the results depend on the processing

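Leaving out each library in turn, the median signed difference ranged from 0 to 8.17 points in the near bin, 0 to 7.0004 in the middle bin and 0.75 to 4.44 in the far bin, with the lowest value without Creole 1. On cytosines covered in both groups, a setting added after the data were seen, the medians were 4.41, 3.98 and 1.44 points. For regions higher in Spanish the far median of 0.93 changed sign, ranging from -0.37 to 1.18 without each library. Of 419 alternative values of the named regions, 368 moved by no more than the mean SD between libraries in the 2 groups of that region. Leaving out 1 library moves a group mean by less than the SD of that group, so this count is no measure of stability. Of the 31 named regions, 22 moved by over 1.5 times when some library was left out. The sign changed in 11 of the 419 values, of which 8 were at regions under 5 points (E1BK14_BOVIN and ENSBTAG00000047264). The other 3 were at regions of 25 points or more, on the cytosines covered in both groups: F1N2I2_BOVIN to 0.36, LOC100336662 to 25 and ENSBTAG00000047937 to -23.2 points. The cause was not tested.

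The count of flank tiles past the threshold was 1 with the likelihood ratio test, and 0 with limma, at 5 or 20 calls, on a shifted grid, with 500 bp tiles and without each library (0 to 0). The share of 100 bp tiles that differed by 25 points or more was 27.4% at 5 calls, 24.3% at 20 calls, 19.2% with 2 or more libraries per group, 19.5% in 500 bp tiles, and 26.2% to 29.4% without each library. No paired analysis was possible because the replicate numbers only follow sample order and no label ties an animal of a group to an animal of the other. Coverage limits the flanks: 28, 41 and 82 regions were measured in all 6 libraries in the 3 bins.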
